A study of Mus musculus with 4 samples.

Results

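The mitochondrial calcium uniporter, its exit route and the outer membrane channels that feed it were examined through 8 genes (Mcu, Micu2, Micu3, Smdt1, Slc8b1, Vdac1, Vdac2 and Vdac3), chosen by symbol from the 55421 genes of the deposited table. All 8 were found and all 8 passed the filter on low values. The data are bulk RNA sequencing of YFP-positive mouse neural stem cells, with 2 wild-type (WT) and 2 Opa1 knockout (Opa1 KO) libraries. Opa1 encodes a dynamin-like GTPase that fuses inner mitochondrial membranes and shapes the cristae. In the study's adult model both genotypes carried a tamoxifen-inducible Cre driven by Nestin and a Cre-dependent YFP reporter on a C57BL/6 background, both received tamoxifen, and the knockout also carried 2 floxed Opa1 alleles. The cells were sorted for YFP, from the subventricular zone according to the study's text, so a library holds stem cells together with their YFP-positive descendants. The study's methods describe young adult mice of both sexes. Its methods and its discussion give different times between tamoxifen and the sort, the discussion the earlier one, and the labels of these 4 libraries give neither age, sex nor time. Nothing in the labels states that each library is a different animal. A p-value here therefore reflects the spread among 4 libraries, which may be technical.

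Calcium crosses the outer mitochondrial membrane through the voltage-dependent anion channels (VDACs), barrel-shaped pores that also pass ATP, ADP and metabolites. It then crosses the inner membrane through the uniporter, driven by the membrane potential. The pore is built of MCU, with EMRE, the product of Smdt1, as a subunit that the animal channel needs for conduction. MICU2 and MICU3 are EF-hand proteins that sense calcium in the intermembrane space and regulate opening, and MICU3 is known mainly from neurons. MCUb, the product of Mcub, is a paralogue of MCU that lowers conduction when it joins the pore. Calcium leaves the matrix in exchange for sodium through NCLX, the product of Slc8b1. In the matrix it stimulates dehydrogenases that supply the respiratory chain, and in excess it favours the permeability transition.

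Recovered reads ranged from 19985853 to 23237326 per library. Opa1, the targeted gene, followed the labels, with normalised read counts of 3039 and 2833 for WT against 837 and 739 for Opa1 KO. Its log2 fold change was -1.90 (SE 0.13), and yet its limma-trend adjusted p was 0.998. DESeq2 on the recovered reads called it, with an adjusted p of 1.6e-25, and so did limma-trend with the replicate number as a block, with an adjusted p of 0.00047. A gene that did not pass the main test is therefore not shown to be unchanged. Of the neural stem cell and neuroblast markers, and of the markers of 6 other cell types, 0 were at 0 in all 4 libraries. The summed level of 4 ependymal markers separated the libraries by replicate number, with 4181 and 6313 in the first WT and first Opa1 KO libraries against 26206 and 23823 in the second of each. The sum of 4 microglia markers separated them the other way, with 1330 and 1340 in the first libraries against 162 and 334 in the second. Pericyte and oligodendrocyte sums are given with Slc8b1.

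Reads of the VDAC genes can be told apart only where their sequences differ, so the longest identical stretch that each pair shares in its coding sequence is shown first. The 3 coding sequences were 66.7% to 72.7% identical when aligned. Capitals mark the shared run, with 12 flanking bases on each side in lower case (GENCODE M21 transcripts, GRCm38, the build named mm10).
Vdac1, shared with Vdac2: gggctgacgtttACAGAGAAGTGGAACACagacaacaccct
Vdac2, shared with Vdac1: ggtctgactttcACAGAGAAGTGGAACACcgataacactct
Vdac2, shared with Vdac3: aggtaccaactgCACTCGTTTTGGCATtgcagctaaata
Vdac3, shared with Vdac2: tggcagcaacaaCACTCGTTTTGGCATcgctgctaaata
Vdac1, shared with Vdac3: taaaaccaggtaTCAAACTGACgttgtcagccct
Vdac3, shared with Vdac1: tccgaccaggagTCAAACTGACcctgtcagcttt
The runs were 17 bases for Vdac1 with Vdac2, 15 bases for Vdac2 with Vdac3 and 10 bases for Vdac1 with Vdac3. The same comparison for the gatekeepers and for the pore and its paralogue gave runs of similar size, 15 bases for Micu2 with Micu3 and 11 bases for Mcu with Mcub.
Micu2, shared with Micu3: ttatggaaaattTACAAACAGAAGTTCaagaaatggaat
Micu3, shared with Micu2: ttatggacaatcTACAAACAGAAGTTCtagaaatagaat
Mcu, shared with Mcub: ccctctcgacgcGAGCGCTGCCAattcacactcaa
Mcub, shared with Mcu: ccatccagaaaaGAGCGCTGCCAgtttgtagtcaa
Pseudogenes are closer copies. Vdac3 has 2, Vdac3-ps1 and Gm7591, that match 853 bases at 99.5% and 97.1% identity, and Vdac2 has 1, Gm7832, that matches 881 bases at 97.0%. These copies received few reads, at most 0.394% of those counted for Vdac3 and 0.304% of those for Vdac2 in any library. The sources used here do not state how reads matching several places were treated.

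The pore gene Mcu (chromosome 10, 59446984 to 59616692, minus strand, protein-coding) had normalised read counts of 306 in WT replicate 1, 561 in WT replicate 2, 472 in Opa1 KO replicate 1 and 605 in Opa1 KO replicate 2. The groups overlapped, with WT replicate 1 far below the other 3 libraries. Between same-numbered libraries Opa1 KO was the higher, by 0.62 on the log2 scale for replicate 1 and 0.11 for replicate 2. The log2 fold change, taken as Opa1 KO over WT from log2(value + 1) throughout, was 0.37 (SE 0.35, 95% interval -0.58 to 1.31), the widest interval of the 8 genes. Its limma-trend adjusted p was 0.998. Without WT replicate 1 the log2 fold change was -0.070, and without WT replicate 2 it was 0.80. The library that decides the sign is thus one of the 2 with low ependymal and high microglia marker sums, and the part of these cells in the level of Mcu was not tested.

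Smdt1 encodes EMRE, the small subunit. The gene (chromosome 15, 82338959 to 82349091, plus strand) gave 1738 and 1354 in the WT libraries against 1444 and 1321 for Opa1 KO. The groups overlapped, with a log2 fold change of -0.15 (SE 0.17, 95% interval -0.61 to 0.31) and a limma-trend adjusted p of 0.998. It was 0.029 without WT replicate 1. In the annotation 16.6% of the Smdt1 exon bases are shared with Pheta2 on the same strand, so counts of Smdt1 are uncertain to the extent that such reads were dropped or split.

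The gatekeepers differed by less than the spread between libraries. Micu2 (chromosome 14, 57916261 to 57999262, minus strand), whose product helps to keep the channel closed at low calcium, was 2095 and 1829 in WT against 1857 and 1772 in Opa1 KO. Opa1 KO replicate 1 lay above WT replicate 2, and the log2 fold change was -0.11 (SE 0.13, 95% interval -0.46 to 0.24). Micu3 (chromosome 8, 40307458 to 40386308, plus strand), whose product enhances uptake, was 478 and 385 in WT against 470 and 411 in Opa1 KO. Both Opa1 KO values lay between the 2 WT values, and the log2 fold change was 0.034 (SE 0.19, 95% interval -0.48 to 0.55). It turned to -0.12 without WT replicate 2 and to -0.063 without Opa1 KO replicate 1. By limma-trend both genes had an adjusted p of 0.998.

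Slc8b1 (chromosome 5, 120511168 to 120534024, plus strand), which encodes the sodium-calcium exchanger NCLX, was the only one of the 8 genes whose libraries separated by genotype. The WT libraries held 366 and 347 normalised reads and the Opa1 KO libraries 517 and 535. Replicates differed little, with a mean of 357 ± 13.4 (SD, n = 2) for WT and 526 ± 12.9 (SD, n = 2) for Opa1 KO. Counting error alone had a Poisson SD of 5.29% in the lowest library, so these SDs may understate the spread. The difference corresponded to a 1.47-fold higher level (95% interval 1.12 to 1.95), or a log2 fold change of 0.56 (SE 0.15). The limma-trend adjusted p over all 18547 genes tested was 0.998, so Slc8b1 did not pass the threshold, although its unadjusted p in that fit was 0.0168. DESeq2 on the recovered reads gave an adjusted p of 0.457, and across the 13 alternative settings the adjusted p ranged from 0.105 to 1. The log2 fold change itself stayed between 0.52 and 0.61 in these settings. In bulk samples fewer or more cells of a type and less or more RNA per cell cannot be told apart, and this holds for every level given here.

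Marker sums of some other cell types also separated the same libraries. Those of mature neurons overlapped, with 2422 and 1995 in WT against 2049 and 2098 in Opa1 KO. Endothelial sums overlapped as well (978 and 1501 against 1266 and 3253), as did the ependymal and microglia sums. Over all genes tested, 15.2% lay wholly above and 15.7% wholly below WT. All 6 pericyte markers were higher in both Opa1 KO libraries, with sums of 3021 and 2387 in WT against 6098 and 6346 in Opa1 KO, and so were all 4 oligodendrocyte markers, with sums of 33884 and 15479 against 45397 and 45086. Neuroblast markers were lower in all 7 cases (132490 and 113515 against 101829 and 83983), while the 7 neural stem cell markers summed to 56099 and 57454 against 70857 and 78258, with 1 of them above WT in both Opa1 KO libraries. The part of these cell types in the level of Slc8b1 was not tested. A stretch of 158 bases in the longest CCDS transcript of Slc8b1, 5.45% of its length and beyond the stop codon, matched transcripts of 24 other genes at 95% identity or more. Reads from this stretch may belong to several genes.

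The outer membrane channels had log2 fold changes between -0.17 and -0.0022, and the groups overlapped for each. Vdac1 (chromosome 11, 52360860 to 52389397, plus strand), encoding the main isoform for metabolite exchange, was 4003 and 4022 in WT against 4056 and 3957 in Opa1 KO. The 4 values lay within a narrow range with no order by genotype, and the log2 fold change was -0.0022 (SE 0.11, 95% interval -0.30 to 0.29). Expressed as fold, the interval ran from 0.813 to 1.23. Vdac2 (chromosome 14, 21825238 to 21845879, plus strand), the isoform known for holding the apoptosis effector BAK, was 4591 and 3839 in WT against 4135 and 3928 in Opa1 KO. Both Opa1 KO values lay inside the WT range (log2 fold change -0.059, SE 0.14, 95% interval -0.44 to 0.32). It was 0.070 without WT replicate 1. Vdac3 (chromosome 8, 22577075 to 22593813, minus strand), an isoform needed for sperm motility in mice, was 7721 and 6523 in WT against 6581 and 6080 in Opa1 KO. Its groups overlapped by a small margin, with Opa1 KO replicate 1 just above WT replicate 2 (-0.17, SE 0.15, 95% interval -0.55 to 0.22). By limma-trend the adjusted p was 0.999 for Vdac1 and 0.998 for both others.

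**Figure D1:**
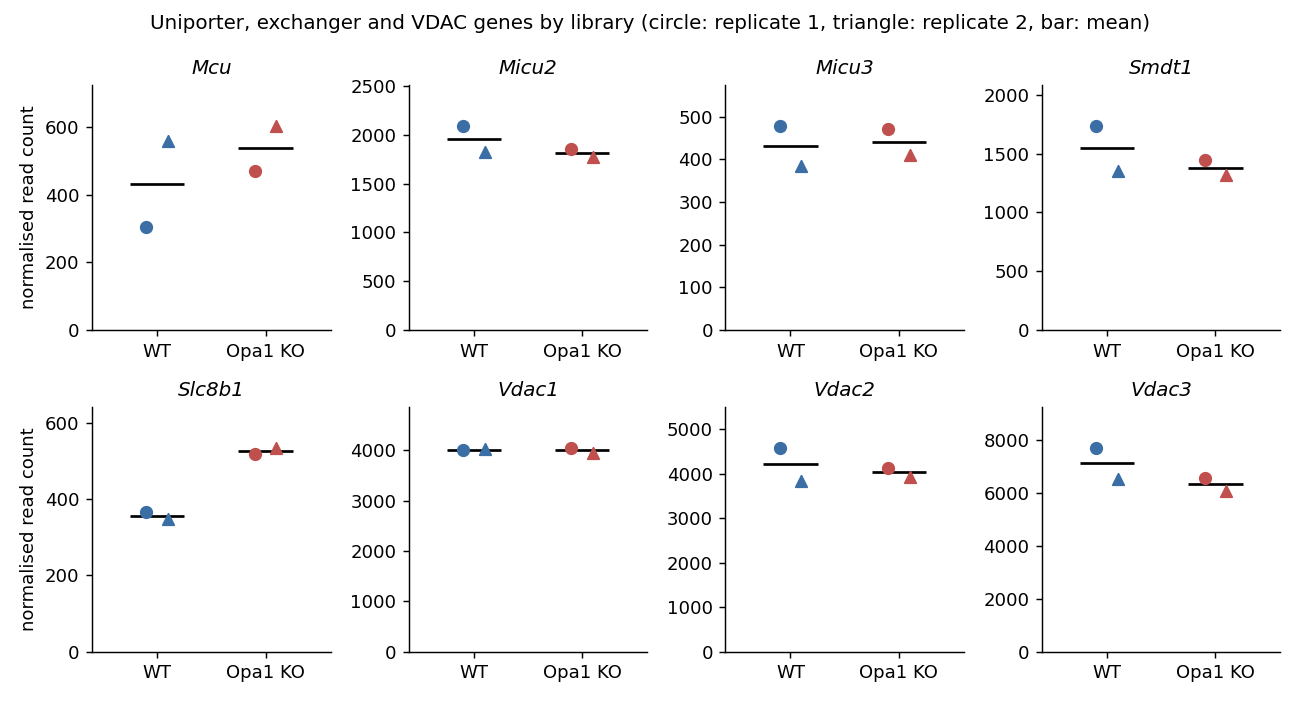
Normalised read counts (vertical axes, starting at 0) of the 8 genes in each WT (blue) and Opa1 KO (red) library, with circles for replicate 1, triangles for replicate 2 and bars for group means. Slc8b1 lies at 366 and 347 in WT and at 517 and 535 in Opa1 KO, while the libraries of the other 7 genes overlap.

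Over the 8 genes 0 passed limma-trend with an adjusted p under 0.05, as did 0 of the 18547 genes tested (0%). At an unadjusted p under 0.05 there was 1 higher gene of the 8, Slc8b1, and 0 lower genes, beside 2.53% higher and 1.06% lower (3.59% in either direction) of all genes. On the recovered reads, edgeR's quasi-likelihood test and limma-voom called 0 of the 8 and 0% of all genes. DESeq2 called 0 of the 8, against 0.35% of all genes (0.264% higher and 0.0863% lower). With the replicate number as a block, limma-trend called 0 of the 8 and 0.981% of all genes. Groups did not overlap for 1 of the 8, in the higher direction, and for 0 in the lower direction, whereas 15.2% and 15.7% of all genes (30.9% together) were separated in these directions. Their median log2 fold change was -0.031, with 3 above and 5 below 0, beside -0.0073 over all genes tested, of which 49% were above and 51% below 0. Counting error was small, with a Poisson SD of 1.29% (Vdac3) to 5.63% (Mcu) of the reads in the lowest library.

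**Figure D2:**
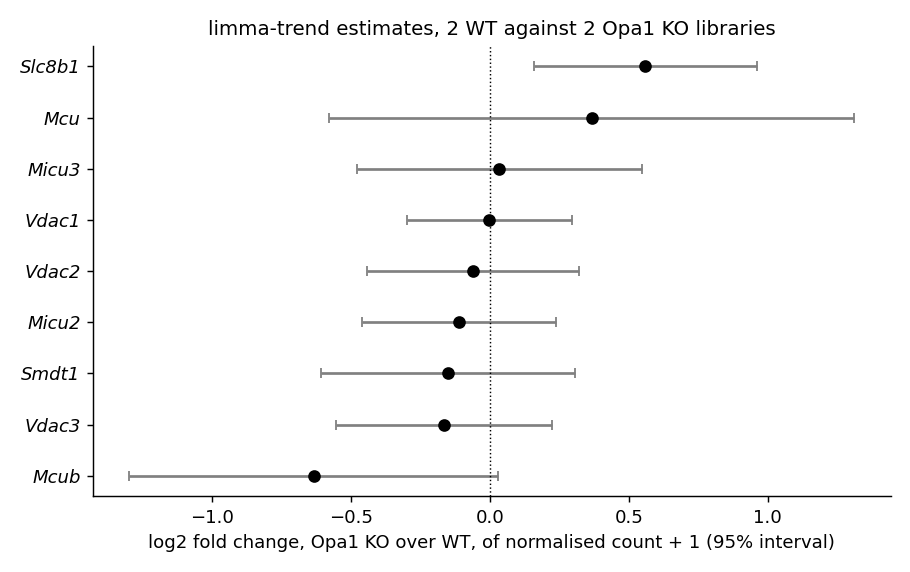
Log2 fold change of Opa1 KO over WT (horizontal axis) with the 95% interval of limma-trend for the 8 genes and for Mcub. The interval of Slc8b1 (0.16 to 0.96) lies above 0 before any adjustment for the number of genes, that of Mcub (-1.30 to 0.030) reaches just past 0, and the others span it.

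Levels of different genes were compared only per length, since longer transcripts give more reads. Per kb of all annotated exon bases, the mean over the 4 libraries was 1530 normalised reads for Vdac1, 1241 for Vdac3, 990.1 for Smdt1, 865 for Vdac2 and 612 for Micu2. Slc8b1 (127), Micu3 (70.9) and Mcu (70.1) followed. Micu3 and Mcu did not differ beyond their spread, with 62.6 to 77.8 for Micu3 and 44.1 to 87.2 for Mcu across libraries, and their order differed between libraries. Smdt1 (893 to 1175) and Vdac2 (805 to 963) overlapped in range, but Smdt1 was the higher in each of the 4 libraries. The order at the top depended on the length used. Per kb of the longest transcript with a consensus coding sequence (CCDS), Vdac3 came first with 4968, ahead of Vdac2 (2110), Smdt1 (2077) and Vdac1 (1983), and the order of the last 3 differed between libraries. In both orders Mcu, Micu3 and Slc8b1 remained the 3 lowest of the 8 genes.

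**Figure D3:**
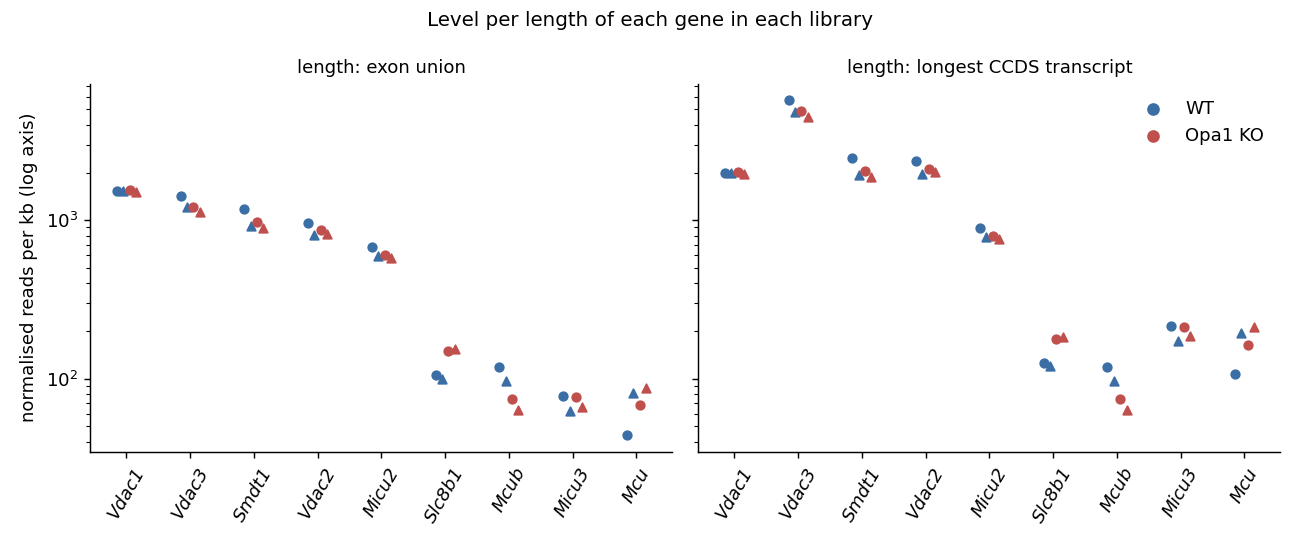
Normalised reads per kb (log axis) of the 8 genes and of Mcub in each library, with length taken as the union of annotated exons (left) or as the longest CCDS transcript (right). Blue is WT and red is Opa1 KO, with circles for replicate 1 and triangles for replicate 2. Vdac3 moves from 1241 to 4968 and Vdac1 from 1530 to 1983 when the length is changed.

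To compare the make-up of the channel, each gene was set against Mcu within the same library, a ratio that does not depend on how libraries are scaled. The log2 ratio of Smdt1 to Mcu, per kb of exon, was 4.74 and 3.50 in WT and 3.84 and 3.36 in Opa1 KO, and that of Micu2 to Mcu was 3.94 and 2.87 against 3.14 and 2.72. Per CCDS transcript length the ratio of Smdt1 to Mcu ran from 3.15 to 4.53. For both genes WT replicate 1 stood highest and the groups overlapped. The log2 ratio of Slc8b1 to Mcu was 1.26 and 0.31 in WT against 1.13 and 0.83 in Opa1 KO, a difference of 0.19 with overlap. The log2 ratio of Slc8b1 to Smdt1 was -3.48 and -3.19 in WT against -2.71 and -2.53 in Opa1 KO, a difference of 0.71 with no overlap. This ratio, not taken to Mcu, compares RNA levels of the exchanger and the EMRE subunit and does not measure calcium flow. It lies outside the planned ratios to Mcu and VDAC shares. It is no separate result, since Slc8b1 alone was separated (log2 fold change 0.56, beside -0.15 for Smdt1). The share of Vdac3 among the 3 VDAC genes, per kb of exon, was 36.4% and 34.0% in WT and 33.5% and 32.5% in Opa1 KO. Of 10 such ratios and shares, 4 were separated by genotype. The levels of 30.9% of all single genes tested were separated, but no such share was computed for ratios. The 10 are not independent, since many share Mcu and the VDAC shares add up to a whole. Slc8b1 and Mcub, which enter some of them, were also separated as single genes. For each of the separated 4 the two-sided exact permutation p was 0.333, the smallest that 6 splits of 4 libraries allow. After Benjamini-Hochberg adjustment over the 10 it was 0.833. The other 6 had an exact p of 0.667 or 1. This permutation test cannot reach 0.05 with 4 libraries.

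Beyond the 8 genes, 15 genes that assemble, process or accompany the uniporter and other matrix calcium transporters gave 7 higher and 8 lower means, a median log2 fold change of -0.013 and 0 calls by limma-trend. Mcub had the largest difference, with 156 and 128 in WT against 97.9 and 84.2 in Opa1 KO. The groups did not overlap, and the log2 fold change was -0.63 (SE 0.25, limma-trend adjusted p 0.998). The log2 ratio of Mcub to Mcu, per kb of exon, was 1.42 and 0.27 in WT and 0.13 and -0.45 in Opa1 KO. Slc25a13, a calcium-activated aspartate-glutamate carrier, was 514 and 445 against 394 and 339 (-0.39, SE 0.18), and its paralogue Slc25a12 was 2727 and 2520 against 2538 and 2200 (-0.15, SE 0.13). Afg3l2, a protease subunit that clears unassembled EMRE, was 1339 and 1517 against 1539 and 1583 (0.13, SE 0.13). In this list 2 genes lay wholly above and 4 wholly below WT, beside 15.2% and 15.7% of all genes. Enzymes that respond to calcium numbered 8, with 2 higher and 6 lower means, a median of -0.075 and 0 calls by limma-trend. Wholly above WT lay 1 of them (Gpd2) and wholly below 1 (Pdp1), beside 15.2% and 15.7% of all genes. For these 2 the limma-trend adjusted p was 0.998. Gpd2, a glycerol phosphate dehydrogenase with EF-hands, was 1448 and 1396 against 1658 and 1642 (0.21, SE 0.11), and Pdp1, the calcium-stimulated phosphatase of pyruvate dehydrogenase, was 2888 and 2586 against 2543 and 2106 (-0.24, SE 0.15). For Idh3b, a subunit of isocitrate dehydrogenase, the log2 fold change was -0.087 (SE 0.13), and for Pdpr, the regulatory subunit of that phosphatase, it was -0.074 (SE 0.13).

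Among 14 partners of the VDACs and genes of the permeability transition, 6 means were higher and 8 lower, with a median log2 fold change of -0.014. Hk2, a hexokinase that docks on VDAC, was low and separated by genotype, with 74.6 and 65.1 in WT against 106 and 110.1 in Opa1 KO (0.62, SE 0.24). Hspa9, the mitochondrial chaperone that links VDAC1 to the IP3 receptor, was 8243 and 8098 against 10249 and 9449 (0.27, SE 0.12). Bcl2, an anti-apoptotic protein of the outer membrane, was 996 and 1070 against 1223 and 1394 (0.34, SE 0.14), and Gsk3b, a kinase that acts on the permeability transition, was 6970 and 5704 against 5614 and 5201 (-0.22, SE 0.15). Of the 14 genes, 3 lay wholly above WT and 1 wholly below, beside 15.2% and 15.7% of all genes. These separated genes are the 4 named here, which were picked by smallest p. None of the 4 passed limma-trend, with an adjusted p of 0.998 for each.

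Genes for calcium release from the endoplasmic reticulum (ER), for its refilling and for ER-mitochondria contacts had 16 higher and 5 lower means of 21. Their median log2 fold change was 0.13, beside -0.0073 over all genes tested, of which 49% were above 0. Wholly above WT lay 3 genes of the list and wholly below 1, beside 15.2% and 15.7% of all genes. Itpr2, an IP3 receptor that delivers calcium to mitochondria, was 549 and 636 in WT against 863 and 920 in Opa1 KO. Its libraries separated by genotype, with a log2 fold change of 0.59 (SE 0.15), close to that of Slc8b1, and a limma-trend adjusted p of 0.998 beside an unadjusted 0.0135. Orai1, a plasma membrane calcium channel, was 232 and 252 against 287 and 314 (0.31, SE 0.18), and Vapb, an ER tether, was 674 and 885 against 863 and 1042 (0.30, SE 0.20). Ryr3, a ryanodine receptor, was low, with 25.2 and 27.2 against 17.4 and 16.3 (-0.61, SE 0.33). By limma-trend 0 of the 58 genes in these 4 lists were called, and by DESeq2 0 as well.

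**Figure D4:**
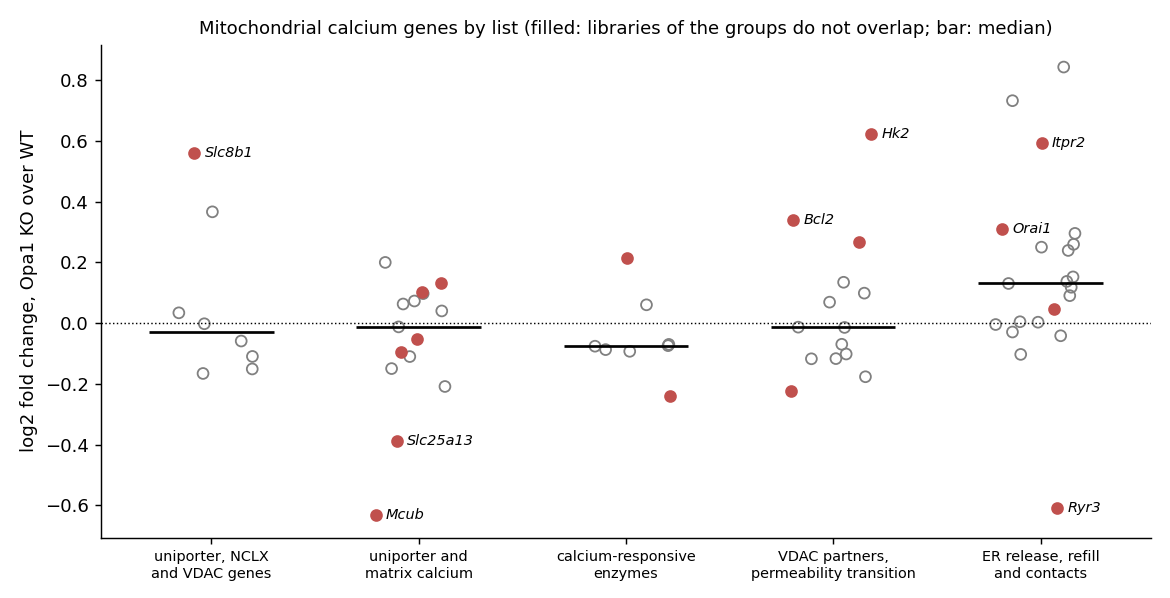
Log2 fold change of Opa1 KO over WT (vertical axis) for each gene of the 8-gene set and of the 4 lists, with filled points where the libraries of the 2 groups did not overlap and bars for the list medians. The medians lie between -0.075 and 0.13, with Slc8b1 (0.56), Hk2 (0.62) and Itpr2 (0.59) the highest of the separated genes and Mcub (-0.63) the lowest.

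Libraries of one genotype differed from each other more than the genotypes did for part of this pathway. Mcu was higher in replicate 2 than in replicate 1 by 0.87 on the log2 scale in WT and by 0.36 in Opa1 KO, the only one of the 8 genes higher in replicate 2 of both genotypes. Micu2, Micu3, Smdt1, Vdac2 and Vdac3 were lower in replicate 2 in both genotypes. Of all 18547 genes tested, 6318 were higher and 7191 lower in replicate 2 of both genotypes. In the ER list 13 of 21 genes were higher in replicate 2 in both genotypes, beside 6318 of all 18547 genes tested. The 4 genes with the largest excess of replicate 2 in WT, named after their values were seen, were Ryr2, Atp2a3, Orai3 and Itpr3. Ryr2, a ryanodine receptor, was 38.7 and 252 in WT and 60.9 and 183 in Opa1 KO, and Atp2a3, a calcium pump of the ER, was 169 and 827 against 420.1 and 920.01. Orai3, a plasma membrane calcium channel, was 322 and 786 against 443 and 820.4, and Itpr3, an IP3 receptor, was low with 9.68 and 24.3 against 14.1 and 56.5. The ependymal marker sums, from 4181 to 26206, and in the opposite direction the microglia marker sums, from 162 to 1340, moved with the same libraries, and the part of these cells in the pattern was not tested.

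**Figure D5:**
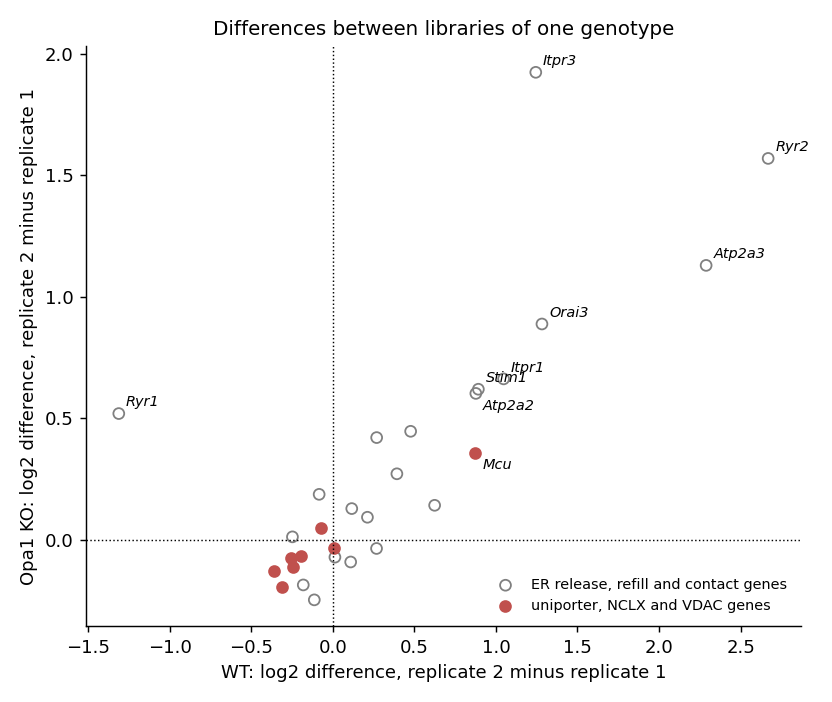
Log2 difference of replicate 2 minus replicate 1 in WT (horizontal axis) and in Opa1 KO (vertical axis) for the 8 genes (filled) and the ER release, refill and contact genes (open). Mcu (0.87 and 0.36) lies among the ER calcium genes at the upper right, while the other 7 genes lie lower on both axes.

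The genes most like Slc8b1 in pattern over the 4 libraries, by Euclidean distance between mean-centred log2 values, were Sardh, a mitochondrial sarcosine dehydrogenase (distance 0.021, with 415 and 386 in WT against 576 and 596 in Opa1 KO), Gm17484 (0.025) and Emx2os (0.032). A distance under 0.1 was found for 31 genes. The lowest log2 fold change of the 8 belonged to Vdac3, whose nearest genes were Nedd8 (0.0032), Siah1a (0.0098) and Smyd5 (0.019), with 621 genes under 0.1. With 4 libraries, a close distance is a description of these values only.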

How the data were processed

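RNA of YFP-positive cells was sequenced in 2 WT and 2 Opa1 KO libraries. HISAT2, featureCounts, SAMtools, DESeq2 and the mm10 build are named in the submitters' processing notes. The sources used here do not state versions, annotation, strand setting or library kit. The deposited signal is a normalised read count, for which the authors scaled the count of each gene by a size factor of its library. Dividing each column by its smallest step gave whole reads for 100% of values (tolerance 1e-06). The authors' deposited fold changes and p-values, and the other 5 deposited tables, were not used. Columns were matched by the submitters' sample descriptions and replicates numbered by the titles. Of 55421 identifiers, 55154 matched a symbol.

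The main test was limma-trend (limma 3.58.1, R 4.3.3, robust) on log2(value + 1), with no covariate beside genotype, over the 18547 genes that reached 10 in 2 or more libraries. P-values were two-sided and adjusted over all genes (Benjamini-Hochberg, threshold 0.05). This scale understates the change of low genes. Alternatives were edgeR 4.0.16, DESeq2 1.42.0 and limma-voom on the recovered reads, 2 other scalings, a pseudocount of 8, no filter or a minimum of 50, the replicate number as a block, and each library left out. Limma-trend, edgeR and DESeq2, but not limma-voom, were run on simulated counts with 200 genes changed. The check required only that the median fitted fold change be close to the planted value. The share of changed genes that each test called is not given here. Near-identical copies were searched with BLAST+ 2.17.0 (at least 100 bases at 95% identity) in GENCODE M21. Named genes were the 8 members, Opa1, up to 4 genes per list (by smallest p) and the 3 nearest in pattern to the highest and lowest member. Ryr2, Atp2a3, Orai3 and Itpr3 were named outside this rule, after their values were seen. Results of 1 gene of these lists are not reported here, although it enters the counts. The members and lists were chosen with earlier results of these data known.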

Additional observations from a re-analysis of the deposited data

How the results depend on the processing

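Across the 13 alternatives 0 of the 8 genes and 0 of the 58 genes of the other lists were called. The number of genes called in the whole table was 0 by limma-trend, 65 by DESeq2, 2 with no filter and 182 with a replicate block. Leaving out each library gave 0. The labels tie replicate numbers to no batch, so this block rests on a shared number. Deviations of same-numbered libraries did correlate over genes (0.718), and the main fit leaves this pairing out. Under the block Slc8b1 had a limma-trend adjusted p of 0.105, Mcub 0.196, Mcu 0.301 and Vdac3 0.330. For the remaining members it ranged from 0.483 (Smdt1) to 0.991 (Vdac1). Between same-numbered libraries Slc8b1 and Mcu were higher in Opa1 KO in both pairs, and Micu2, Smdt1 and Vdac3 lower in both. Micu3, Vdac1 and Vdac2 differed in sign between the pairs. The sign of Slc8b1, Micu2, Vdac3 and Mcub was kept in all 13 alternatives. The log2 fold change of Vdac1, near 0, turned to 0.0071 by edgeR, 0.0057 by DESeq2, 0.0074 by limma-voom, 0.051 when scaled by library size only and 0.0074 by TMM factors. With single libraries left out, values ranged from -0.020 to 0.016 for Vdac1, -0.070 to 0.80 for Mcu, -0.12 to 0.19 for Micu3, -0.33 to 0.029 for Smdt1, -0.19 to 0.070 for Vdac2, -0.21 to -0.012 for Micu2, -0.29 to -0.044 for Vdac3 and -0.77 to -0.49 for Mcub. The difference in the log2 ratio of Mcub to Mcu ranged from -1.58 to -0.43, that of Slc8b1 to Smdt1 from 0.57 to 0.85, that of Slc8b1 to Mcu from -0.28 to 0.67, and that in the Vdac3 share from -3.429 to -1.004 percentage points. The cause of these shifts was not tested. Scaling by library size only moved the median of all genes from -0.0073 to 0.045. The length of the longest CCDS transcript, chosen after seeing the data, separated 5 of the 10 ratios by genotype in place of 4. Of all single genes tested, 30.9% were separated, a share that was not computed for ratios. With 2 libraries a group the spread is poorly known, and for Slc8b1 the Poisson SD of the lowest library (5.29%) limits precision as well.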
